A study of Mus musculus with 6 samples.

Results

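Aminoacyl-tRNA synthetases are the enzymes that join each amino acid to its tRNA. RNA of 36 of them was measured in iGCBs with Cre-mediated deletion of *Eif3e* (cKO) and in control iGCBs. The members were taken by gene symbol from the table of gene counts. They comprise 20 genes for enzymes of the cytosol and 16 genes, with symbols ending in 2, for enzymes of mitochondria. All 36 are among the 24499 genes of the table, and all 36 were among the 13296 genes that passed the filter on low counts and were tested.

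The cells, iGCBs, model germinal center B cells in vitro. Naïve B cells from the spleen were cultured on 40LB feeder cells, a fibroblast line (BALB/c 3T3) that expresses CD40L and BAFF, irradiated at 120 Gy, with IL-4 at 1 ng/ml. On day 3, YFP+ cells were sorted and their polyA RNA was sequenced, in 3 biological replicates per group. Both groups carried Cγ1 Cre and a Rosa26-YFP LSL reporter that turns YFP on after Cre has acted. The cKO mice were in addition Eif3e fl/fl, and no floxed Eif3e allele is listed for the control mice. The mice were on the C57BL/6J background and their age for these cultures was not given in the sources used here. Cγ1 Cre is active in B cells that transcribe the IgG1 constant region, and the YFP+ sort keeps cells in which it has acted. B cell markers were high in every library, at a summed level of 4464 to 4620 CPM in cKO and 4331 to 4687 CPM in control libraries. CPM are counts scaled to library size with TMM factors.

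Each synthetase recognizes its amino acid and its tRNAs and uses ATP to join them. Enzymes of class I and class II have unrelated catalytic folds. In mammals, several cytosolic enzymes assemble with scaffold proteins into the multisynthetase complex, while others stay free or pair with elongation factors. Mitochondria use a separate set of enzymes, encoded in the nucleus and imported. Glycyl- and lysyl-tRNA synthetase are exceptions, since *Gars* and *Kars* each encode the enzyme of both compartments. Uncharged tRNA activates the kinase GCN2, which phosphorylates eIF2 and thereby raises translation of ATF4. ATF4 is a transcription factor whose known targets include many cytosolic synthetase genes, together with genes of amino acid synthesis and transport.

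*Eif3e*, the deleted gene, was measured at 173, 149.8 and 152 CPM in the cKO libraries and at 424, 401 and 392.4 CPM in the control libraries. The cKO level was 39.0% of control (log2 fold change −1.36, standard error (SE) 0.0657, adjusted p = 6.71e-07). Counts cover the whole gene and do not separate the deleted exons. Here and below, tests are edgeR's quasi-likelihood test, two-sided, of 3 cKO against 3 control libraries, p-values are adjusted over all genes tested by Benjamini-Hochberg, and a gene passed the test at an adjusted p under 0.05. Totals ranged from 39079582 to 45504570 estimated counts per library. *Xist* was present in cKO replicate 2 and in control replicates 1 and 2, so replicates differed in sex within both groups.

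Most cytosolic synthetase RNAs fell in cKO iGCBs. Of the 20 cytosolic genes, 14 were lower, 3 were higher and 3 did not pass the test. Among all genes tested, 24.5% were lower and 24.1% were higher. Of the 16 mitochondrial genes, 3 were lower, 4 were higher and 9 did not pass. The median log2 fold change was −0.287 over the cytosolic genes and 0.111 over the mitochondrial genes, beside −0.004 over all genes tested. The median log2 fold change of the mitochondrial synthetases was 0.0715 without cKO replicate 3, 0.0592 without control replicate 2, 0.171 without control replicate 3 and 0.061 with *Xist* presence as a covariate. With a fold change over 1.5 as well, the cutoffs used by the study, 6 cytosolic genes were lower and 0 higher, and 0 mitochondrial genes were lower and 1 higher. Of all genes tested, 10.6% were lower and 10.4% higher at these cutoffs. No overlap between the groups' libraries was seen for 18 cytosolic and 10 mitochondrial genes, while 58.7% of all genes tested showed no overlap.

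**Figure D1:**
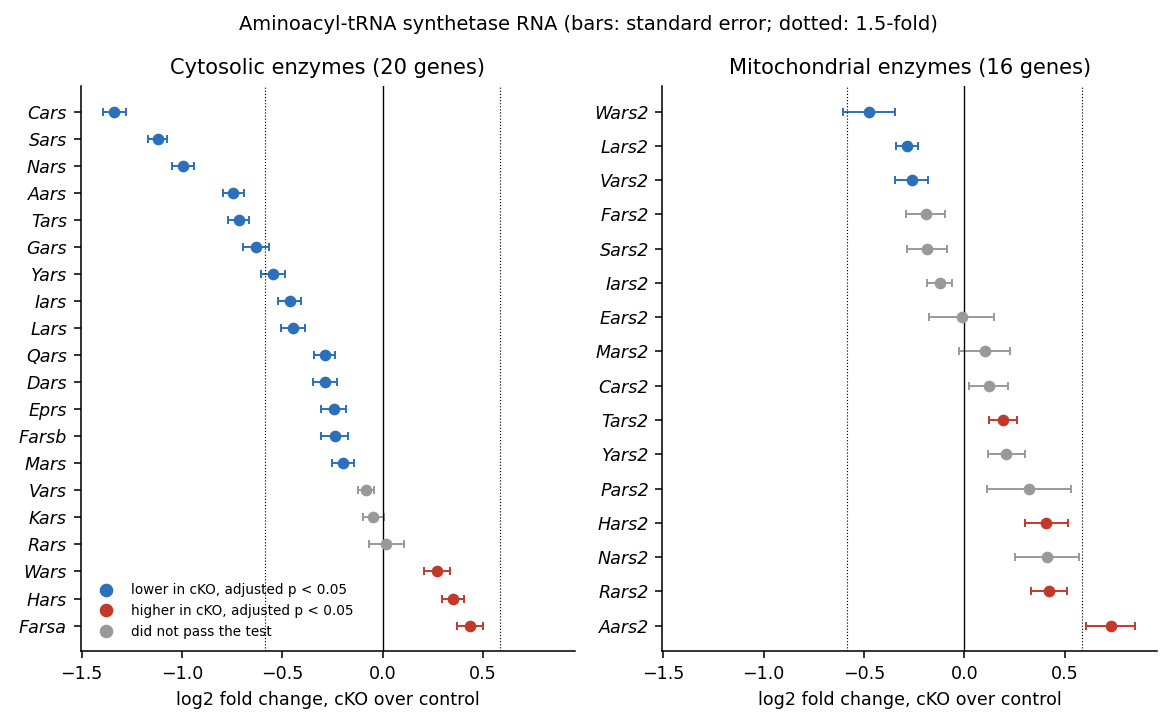
Log2 fold change of cKO over control for 20 cytosolic (left) and 16 mitochondrial (right) synthetase genes, as points with standard errors from edgeR, n = 3 libraries per group. Blue and red points passed the test, gray points did not, and dotted lines mark 1.5-fold. The cytosolic genes reach from −1.34 for *Cars* to 0.43 for *Farsa*, and the mitochondrial genes from −0.47 for *Wars2* to 0.73 for *Aars2*.

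The enzymes of the amino acids alanine, glycine, isoleucine, threonine and tyrosine are introduced by their promoters, since these are the members in which the core letters of an ATF4 binding site were found. The core searched was TGATGNAA on both strands, the start of the C/EBP-ATF response element that ATF4 binds as a dimer with a C/EBP protein. The RefSeq promoter table (GRCm38.p6) gave a window from 250 bases before to 50 bases after a start site for 27 of the 36 members, and the search covered only those. The core was found in 5 of 13 cytosolic genes with a promoter, *Aars*, *Gars*, *Iars*, *Tars* and *Yars*, and in 0 of 14 mitochondrial genes. It was found in 4.51% of the 27025 genes of the promoter table, and in 6 of 19 genes of the ATF4 response list described further on. The 5 promoters are printed in the direction of transcription with the matches in capitals, followed by that of *Sars*, which had the largest fall among the members with a promoter and held no match.

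*Aars* promoter, chr8:111033592-111033891, plus strand: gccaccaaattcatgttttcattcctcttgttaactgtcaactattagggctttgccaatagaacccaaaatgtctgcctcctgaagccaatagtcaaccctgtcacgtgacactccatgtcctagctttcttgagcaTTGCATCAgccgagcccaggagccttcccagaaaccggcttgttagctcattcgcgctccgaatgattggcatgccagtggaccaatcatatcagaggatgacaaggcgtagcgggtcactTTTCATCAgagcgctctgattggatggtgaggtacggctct
*Gars* promoter, chr6:55037751-55038050, plus strand: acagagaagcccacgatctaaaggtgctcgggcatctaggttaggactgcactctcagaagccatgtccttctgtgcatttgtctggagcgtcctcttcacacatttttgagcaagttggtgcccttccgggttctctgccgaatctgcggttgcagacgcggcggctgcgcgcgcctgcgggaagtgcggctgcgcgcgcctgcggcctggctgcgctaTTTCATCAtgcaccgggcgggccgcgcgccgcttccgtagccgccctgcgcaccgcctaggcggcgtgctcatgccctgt
*Iars* promoter, chr13:49681880-49682179, plus strand: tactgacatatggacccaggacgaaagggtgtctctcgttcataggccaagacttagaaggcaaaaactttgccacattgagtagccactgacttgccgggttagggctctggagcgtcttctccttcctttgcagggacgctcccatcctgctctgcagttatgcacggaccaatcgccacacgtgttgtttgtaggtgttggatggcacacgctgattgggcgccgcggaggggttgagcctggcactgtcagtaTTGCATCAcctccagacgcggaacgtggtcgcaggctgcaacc
*Tars* promoter, chr15:11399609-11399908, minus strand: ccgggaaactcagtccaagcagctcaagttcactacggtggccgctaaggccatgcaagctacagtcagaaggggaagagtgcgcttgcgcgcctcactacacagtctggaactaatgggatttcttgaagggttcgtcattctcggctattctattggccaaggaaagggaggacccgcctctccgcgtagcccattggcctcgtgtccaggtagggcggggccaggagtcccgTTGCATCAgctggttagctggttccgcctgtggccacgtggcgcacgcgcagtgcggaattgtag
*Yars* promoter, chr4:129189653-129189952, plus strand: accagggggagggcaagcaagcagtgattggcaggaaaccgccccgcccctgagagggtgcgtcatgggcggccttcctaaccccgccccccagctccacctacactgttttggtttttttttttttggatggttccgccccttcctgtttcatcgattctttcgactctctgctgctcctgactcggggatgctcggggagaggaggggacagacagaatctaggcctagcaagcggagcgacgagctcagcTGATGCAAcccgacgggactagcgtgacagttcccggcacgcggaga
*Sars* promoter, chr3:108445210-108445509, minus strand: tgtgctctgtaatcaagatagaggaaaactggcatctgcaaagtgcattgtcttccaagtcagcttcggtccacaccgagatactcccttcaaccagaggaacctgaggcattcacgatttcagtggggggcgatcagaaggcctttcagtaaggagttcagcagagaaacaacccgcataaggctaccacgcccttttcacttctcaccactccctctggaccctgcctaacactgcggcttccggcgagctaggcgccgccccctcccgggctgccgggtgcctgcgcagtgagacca

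Positions were counted from the start site of the promoter window. In the *Aars* promoter a match began 112 bases before that start and another at base 10 counted from it. The match began 30 bases before the start in *Gars*, 15 bases before it in *Tars*, at base 8 counted from it in *Iars* and at base 4 in *Yars*. For *Aars* and *Yars* the RefSeq span of the gene began upstream of this start site. All matches but the one in *Yars* read TGATGNAA on the strand opposite to the gene. RNA of all 5 genes was lower in cKO iGCBs. Among the other 8 cytosolic genes with a promoter, 6 were lower as well (*Dars*, *Eprs*, *Farsb*, *Mars*, *Qars* and *Sars*), so RNA fell both with and without these letters in the window. A match is a description of sequence and not a bound site, and the absence of a match says only that these letters were not in this window.

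*Cars*, which encodes the enzyme for cysteine, fell furthest. It was measured at 51.9, 54.2 and 54.3 CPM in the cKO libraries and at 131, 132 and 142 CPM in the control libraries. All cKO libraries lay far below all controls, at 39.6% of the control level (log2 fold change −1.34, SE 0.0566, adjusted p = 3.85e-07). *Sars*, for serine, was measured at 128, 124 and 119.9 CPM in cKO and at 265, 277 and 267 CPM in control libraries. Its cKO level was 46.0% of control (log2 fold change −1.12, SE 0.0488, adjusted p = 4.77e-07). *Nars*, for asparagine, had 122, 131 and 119.9 CPM in cKO and 242, 239.8 and 261 CPM in control libraries. That left 50.2% of the control level (log2 fold change −0.99, SE 0.0563, adjusted p = 1.47e-06). For each of these 3 genes the highest cKO library lay below the lowest control by more than the spread within either group.

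*Aars*, for alanine, was measured at 182, 186 and 187 CPM in cKO and at 299, 302 and 329.8 CPM in control libraries, a level of 59.7% of control (log2 fold change −0.74, SE 0.0526, adjusted p = 3.74e-06). *Tars*, for threonine, had 79.3, 81.7 and 77.3 CPM in cKO and 128, 129.5 and 135 CPM in control libraries (log2 fold change −0.72, SE 0.0521, adjusted p = 4.27e-06). Both genes were separated between the groups in all libraries. *Gars*, whose product charges glycine tRNA in the cytosol and in mitochondria, had 162, 174 and 154 CPM in cKO and 249.6, 237 and 273 CPM in control libraries. Its log2 fold change was −0.63 (SE 0.0658, adjusted p = 3.48e-05), and without control replicate 3 it was −0.57, short of 1.5-fold. *Yars*, for tyrosine, fell short of 1.5-fold with all libraries, at 93.3, 99.1 and 95.4 CPM in cKO and 131, 139 and 149 CPM in control libraries (log2 fold change −0.55, SE 0.0603, adjusted p = 5.07e-05). It passed 1.5-fold, at −0.589, without control replicate 1.

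Of the 8 enzymes of the multisynthetase complex, 6 were lower and 0 higher, with a median log2 fold change of −0.265, and 0 of the 8 passed 1.5-fold. Of the 12 cytosolic genes outside the complex, 8 were lower and 3 higher, with a median of −0.588, and 6 were lower by over 1.5-fold. The difference between these groups of genes was not tested. *Iars*, for isoleucine, fell most in the complex, from 234, 230.3 and 241 CPM in control libraries to 161, 184 and 168 CPM in cKO libraries (log2 fold change −0.46, SE 0.0579, adjusted p = 0.000109). A processed pseudogene, *Gm4849*, shares 1656 bases of the GENCODE *Iars* transcript at 96.0% identity, so some reads could belong to either. *Lars*, for leucine, went from 146, 150.4 and 164 CPM to 109.9, 118 and 111 CPM (log2 fold change −0.45, SE 0.0597, adjusted p = 0.000165). In both genes the groups did not overlap.

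Another 4 enzymes of the complex passed the test with smaller differences. *Qars*, for glutamine, had a log2 fold change of −0.29 (170.3, 168 and 162 CPM in cKO and 199, 199.6 and 214 CPM in control libraries, adjusted p = 0.000948). *Dars*, for aspartate, had 154, 155 and 142 CPM in cKO and 194, 174 and 182 CPM in control libraries, a log2 fold change of −0.29 (adjusted p = 0.0028). *Eprs* encodes a fused enzyme for glutamate and proline, and had 252, 268 and 232 CPM in cKO and 296, 282 and 313 CPM in control libraries (log2 fold change −0.24, adjusted p = 0.00972). The separation of the groups was narrow for *Dars* and *Eprs*. *Mars*, for methionine, had a log2 fold change of −0.20 (127, 137 and 127 CPM in cKO and 145, 146 and 157 CPM in control libraries, adjusted p = 0.0155). Its call was lost without cKO replicate 1, cKO replicate 3 or control replicate 3, at adjusted p-values of 0.0562, 0.0533 and 0.0604.

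*Kars*, *Rars* and *Vars* did not pass the test. *Kars*, for lysine in both compartments, had 207, 204 and 188.5 CPM in cKO and 205, 199.6 and 214 CPM in control libraries (log2 fold change −0.05, SE 0.0535, adjusted p = 0.509). *Rars*, for arginine, had 96.9, 95.2 and 90.5 CPM in cKO and 92.7, 80.7 and 106 CPM in control libraries (log2 fold change 0.02, SE 0.0874, adjusted p = 0.881). For both genes the libraries of the groups overlapped. *Vars*, for valine, had 1064, 1112 and 1108 CPM in cKO and 1155, 1171 and 1153 CPM in control libraries, a log2 fold change of −0.08 (SE 0.0385, adjusted p = 0.0997). Its groups did not overlap, yet the difference did not pass. The *Vars* counts were the highest of the 36 genes before any scaling by transcript length.

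*Farsa*, *Hars* and *Wars* rose. *Farsa* encodes the alpha subunit of the phenylalanine enzyme and was measured at 85.5, 91.7 and 86.5 CPM in cKO and at 60.5, 64.7 and 69.8 CPM in control libraries (log2 fold change 0.43, SE 0.0647, adjusted p = 0.000339). *Hars*, for histidine, had 94.8, 99.5 and 93.5 CPM in cKO and 74.1, 72.8 and 78.4 CPM in control libraries (log2 fold change 0.35, SE 0.0553, adjusted p = 0.000471). *Wars*, for tryptophan, had 66.2, 64.1 and 64.5 CPM in cKO and 52.0, 52.1 and 57.6 CPM in control libraries (log2 fold change 0.27, SE 0.0649, adjusted p = 0.00624). All 3 cKO libraries lay above all 3 control libraries for each gene.

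*Farsb*, which encodes the beta subunit of the same phenylalanine enzyme, moved the other way from *Farsa*. It had 72.3, 73.0 and 65.6 CPM in cKO and 77.8, 83.4 and 87.8 CPM in control libraries (log2 fold change −0.24, SE 0.066, adjusted p = 0.0125). The enzyme holds alpha and beta subunits in equal number. The log2 ratio of *Farsa* to *Farsb* CPM, which is not scaled for transcript length, was 0.24, 0.33 and 0.40 in cKO and −0.36, −0.36 and −0.33 in control libraries. The mean ratio differed by 0.68, cKO minus control (exact permutation test, two-sided, p = 0.1, the lowest value 3 libraries against 3 can reach).

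**Figure D2:**
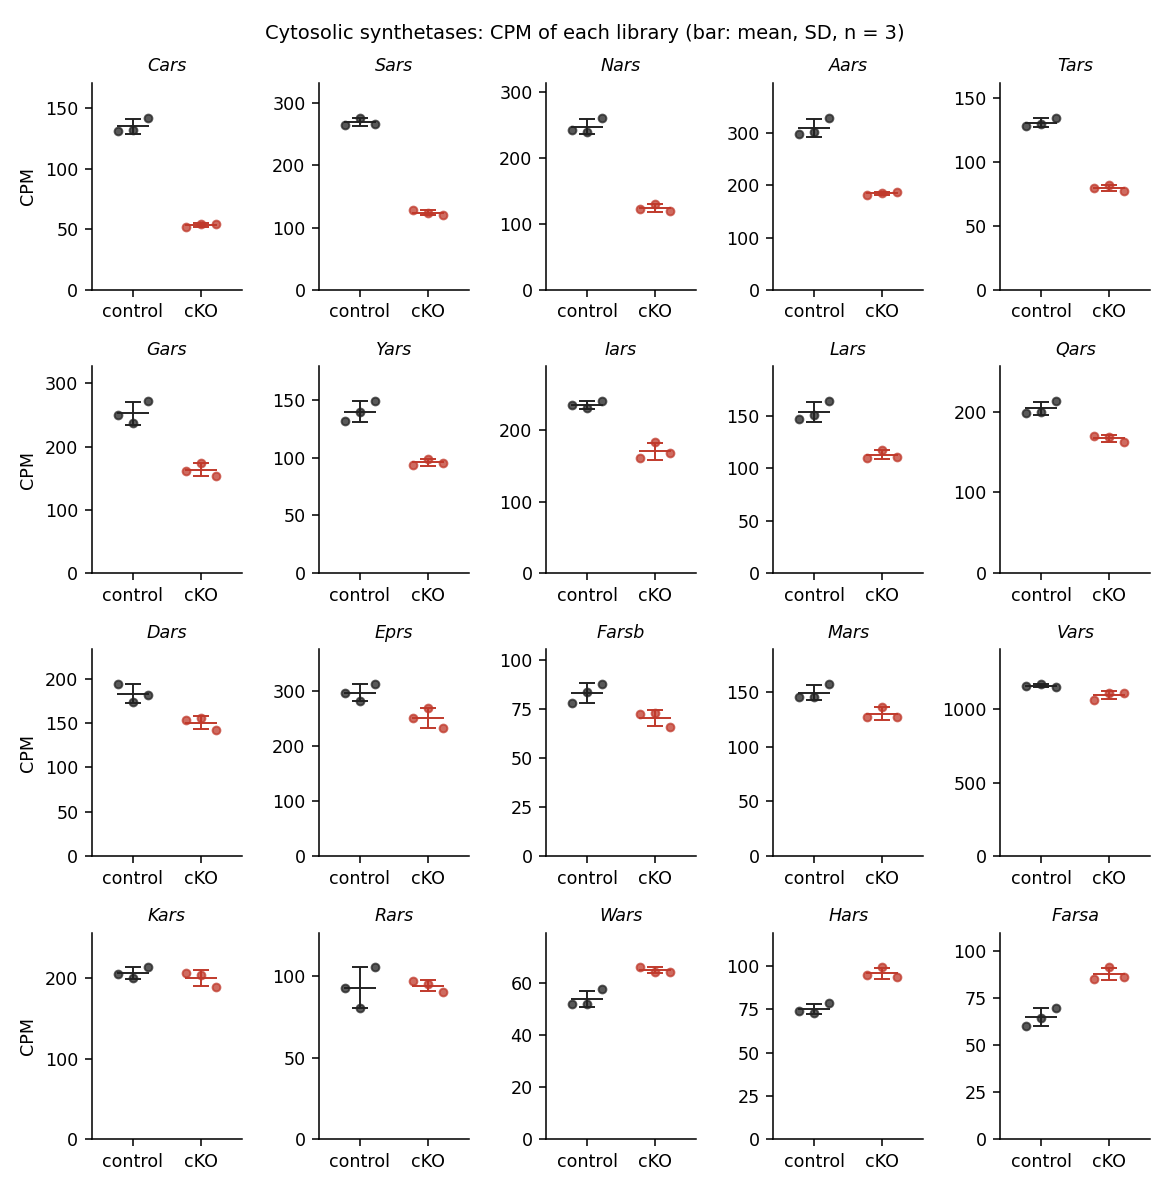
CPM of the 20 cytosolic synthetase genes in each of 3 control (black) and 3 cKO (red) libraries, with the mean and SD, ordered from the most negative to the most positive log2 fold change. Each panel has its own axis from 0. The groups are apart in every panel but those of *Kars* and *Rars*.

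Of the 12 cytosolic genes that are commonly listed as ATF4 targets (*Aars*, *Cars*, *Eprs*, *Gars*, *Iars*, *Lars*, *Mars*, *Nars*, *Sars*, *Tars*, *Wars* and *Yars*), 11 were lower and 1, *Wars*, was higher, with a median log2 fold change of −0.588. Of the 8 other cytosolic genes, 3 were lower, 2 were higher and 3 did not pass, with a median of −0.065. All 6 genes lower by over 1.5-fold were on the list. The list was chosen with earlier results of these data known, and the difference between listed and other genes was not tested. By catalytic fold, 6 of 9 cytosolic class I genes were lower, 1 of them by over 1.5-fold, with a median of −0.289. Of 10 cytosolic class II genes, 7 were lower, 5 of them by over 1.5-fold, with a median of −0.458. The difference between the classes was not tested. The last cytosolic gene, *Eprs*, holds an enzyme of each class.

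The shares of mitochondrial genes that were lower (18.8%) and higher (25.0%) were near those of all genes tested, so these counts are not a result about the group. *Aars2*, for alanine, rose most, from 15.0, 19.9 and 16.5 CPM in control libraries to 29.9, 25.7 and 29.6 CPM in cKO libraries, 166% of the control level (log2 fold change 0.73, SE 0.12, adjusted p = 0.000645). It was the only mitochondrial member past 1.5-fold, and it moved opposite to its cytosolic counterpart *Aars*. *Rars2*, for arginine, had 32.0, 32.4 and 29.9 CPM in cKO and 22.1, 23.1 and 25.2 CPM in control libraries (log2 fold change 0.42, SE 0.0873, adjusted p = 0.00258). *Hars2*, for histidine, had 27.5, 32.5 and 33.1 CPM in cKO and 25.5, 23.8 and 20.9 CPM in control libraries (log2 fold change 0.41, SE 0.108, adjusted p = 0.0101). In these 3 genes the cKO libraries were all above the controls. *Tars2*, for threonine, had 50.5, 54.3 and 51.7 CPM in cKO and 43.7, 45.1 and 48.0 CPM in control libraries. Its log2 fold change of 0.19 (SE 0.0699, adjusted p = 0.0423) lost its call without cKO replicate 1, 2 or 3 and without control replicate 1 or 2, with adjusted p-values of 0.0628, 0.111, 0.0901, 0.137 and 0.105 in that order. It was also lost with no filter on low counts (0.053), with *Xist* presence as a covariate (0.0601) and with the replicate number as a block.

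*Wars2*, *Lars2* and *Vars2* fell. *Wars2*, for tryptophan, had 6.39, 5.93 and 5.89 CPM in cKO and 8.22, 8.96 and 8.14 CPM in control libraries, a log2 fold change of −0.47 (SE 0.13, adjusted p = 0.0123). *Lars2*, for leucine, had 281, 310.4 and 315 CPM in cKO and 376, 362 and 369 CPM in control libraries (log2 fold change −0.29, SE 0.0554, adjusted p = 0.00169). *Vars2*, for valine, had 29.2, 31.1 and 29.8 CPM in cKO and 35.5, 38.9 and 33.8 CPM in control libraries (log2 fold change −0.26, SE 0.0837, adjusted p = 0.0248). The groups did not overlap in any of the 3. The *Vars2* call was lost without cKO replicate 1, cKO replicate 3 or control replicate 2, at adjusted p-values of 0.0823, 0.0778 and 0.0665, and with *Xist* presence as a covariate (0.0553).

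Of the other 9 mitochondrial members, *Nars2*, for asparagine, came closest to the threshold. It had 12.4, 10.1 and 11.2 CPM in cKO and 7.76, 10.4 and 7.24 CPM in control libraries, which overlap because of control replicate 2 (log2 fold change 0.41, SE 0.159, adjusted p = 0.055). With single libraries left out it lay between 0.31 (without control replicate 3, adjusted p = 0.156) and 0.58 (without control replicate 2, adjusted p = 0.0142), and the latter was the only such fit in which it passed. It also passed narrowly with DESeq2's size factors (0.0478) and with at least 10 counts required in every library (0.0479). The others were *Cars2*, *Ears2*, *Fars2*, *Iars2*, *Mars2*, *Pars2*, *Sars2* and *Yars2*, the enzymes for cysteine, glutamate, phenylalanine, isoleucine, methionine, proline, serine and tyrosine. Their log2 fold changes lay between −0.19 (*Fars2*) and 0.32 (*Pars2*), and 3 of them, *Fars2*, *Sars2* and *Yars2*, showed no overlap. The lowest was *Pars2*, between 3.79 and 6.85 CPM, with a standard error of 0.209 on the log2 scale. The RefSeq spans of *Iars2* and *Rab3gap2*, on opposite strands, overlap by 115 bases. GENCODE transcripts of *Nars2* and *Vars2* share 284 and 130 bases with an antisense gene. The counting was not stated to use strand, so these values are uncertain there.

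**Figure D3:**
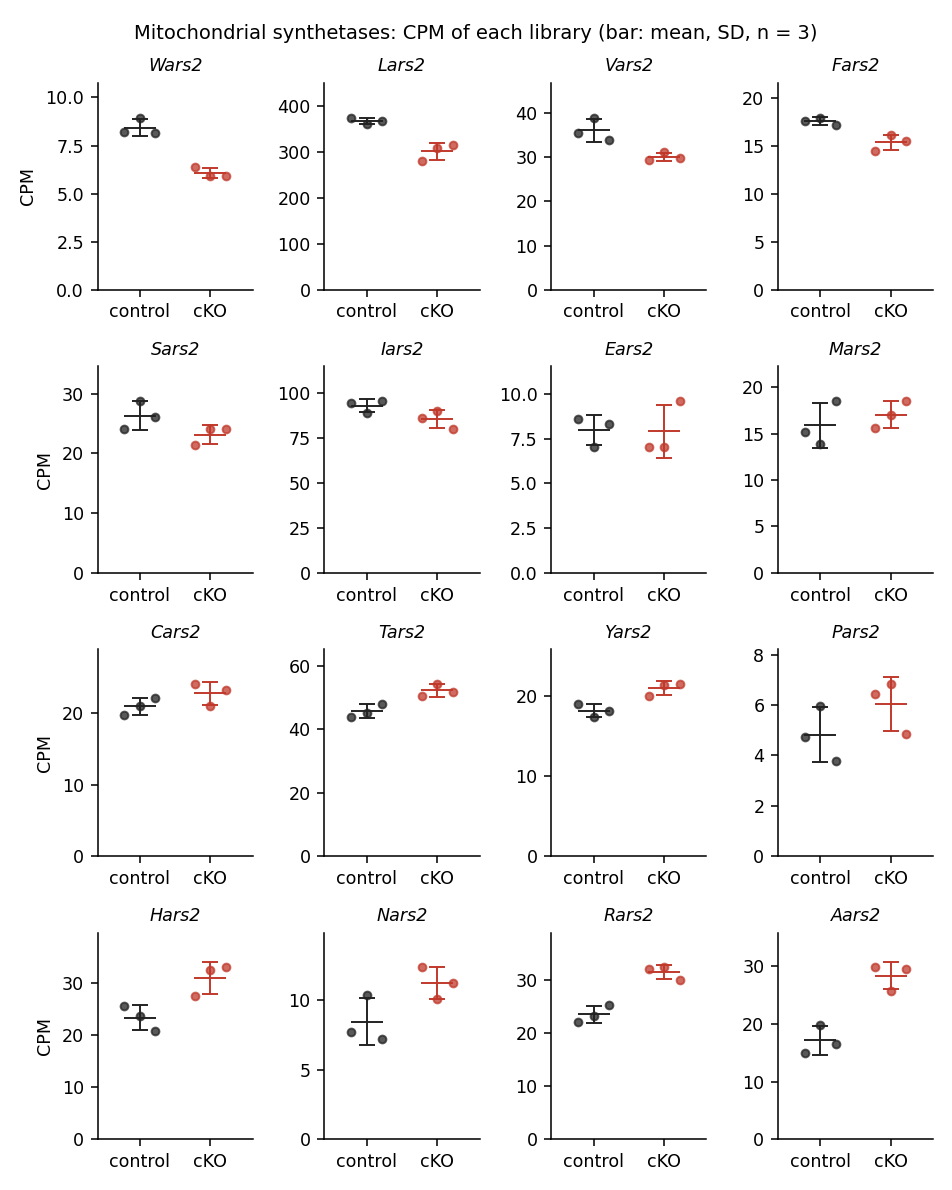
CPM of the 16 mitochondrial synthetase genes in each of 3 control (black) and 3 cKO (red) libraries, with the mean and SD, ordered from the most negative to the most positive log2 fold change. Each panel has its own axis from 0. *Aars2* at the end is the only member past 1.5-fold, and *Lars2* has the highest counts.

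Summed over the 20 genes, cytosolic synthetases took 3515 ± 91.9 CPM (SD, n = 3) in cKO and 4444 ± 129 CPM in control libraries. The lowest control library, at 4361 CPM, lay above the highest cKO library, at 3619 CPM. Summed over 16 genes, mitochondrial synthetases took 691 ± 23.6 CPM in cKO and 736 ± 2.9 CPM in control libraries. That difference turned on *Lars2*, and without it the remaining 15 genes took 389 ± 6.14 CPM in cKO and 367 ± 5.49 CPM in control libraries. These sums weigh long and abundant transcripts most, and in sorted bulk samples fewer cells expressing a gene and less RNA per cell cannot be told apart.

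The enzymes for the same amino acid in both compartments were set side by side as a log2 ratio in each library. Of 17 such pairs, the cytosolic member was lower relative to its mitochondrial counterpart in 9 with no overlap between groups, higher in 3 with no overlap, and overlapping in 5. *Eprs* and *Fars2* each enter 2 of these pairs, and the share of other gene pairs without overlap was not computed. The difference in this ratio, cKO minus control, was −1.48 for *Aars*/*Aars2*, −1.45 for *Cars*/*Cars2* and −1.42 for *Nars*/*Nars2*. In *Cars*/*Cars2* it was 1.10, 1.36 and 1.22 in cKO and 2.72, 2.65 and 2.68 in control libraries. *Cars2* itself did not pass the test. The 3 pairs that moved the other way were *Farsa*/*Fars2*, *Vars*/*Vars2* and *Wars*/*Wars2*, with differences of 0.63, 0.18 and 0.74. *Hars* and *Hars2* both rose and their ratio overlapped between groups. The RefSeq spans of these neighboring genes, on opposite strands, overlap by 4 bases. For each pair without overlap, the exact permutation test gave p = 0.1, the smallest possible.

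**Figure D4:**
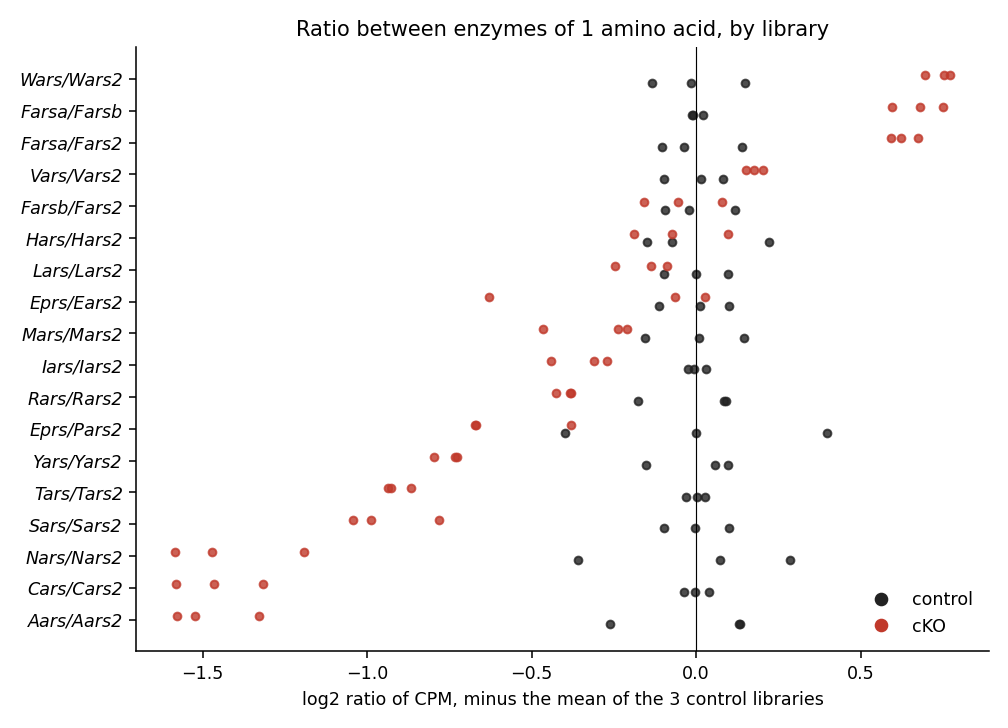
Log2 ratio of CPM between enzymes of the same amino acid in 3 control (black) and 3 cKO (red) libraries, each shown minus the mean of the control libraries. Pairs are cytosolic over mitochondrial, apart from *Farsa*/*Farsb*, the subunits of 1 cytosolic enzyme. *Aars*/*Aars2*, *Cars*/*Cars2* and *Nars*/*Nars2* lie furthest to the left, and *Wars*/*Wars2* furthest to the right.

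RNA for proteins that work with the synthetases was counted by list. Of the 3 scaffold proteins of the multisynthetase complex, 2 were higher and 0 lower. *Eef1e1* (AIMP3) had 38.4, 37.6 and 37.3 CPM in cKO and 17.7, 19.6 and 18.6 CPM in control libraries (log2 fold change 1.02, SE 0.0816, adjusted p = 7.2e-06). *Aimp2* had 49.0, 51.9 and 46.7 CPM in cKO and 29.0, 28.3 and 26.4 CPM in control libraries (log2 fold change 0.82, SE 0.0797, adjusted p = 2.26e-05). The cKO libraries held more RNA of both scaffold proteins in every comparison of libraries, while 0 of the 8 enzymes of the complex passed the test as higher. *Aimp1* had a log2 fold change of −0.13 (adjusted p = 0.123). Of 12 other charging and editing factors, 1 was lower, 1 higher and 10 did not pass. *Mtfmt*, which formylates the initiator methionyl-tRNA of mitochondria, had a log2 fold change of 0.64 (SE 0.0932, adjusted p = 0.000283), and *Prorsd1*, related to a bacterial domain that edits mischarged prolyl-tRNA, had −0.69 (SE 0.173, adjusted p = 0.00781).

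RNA of the sensing branch was counted in the same way. Of 5 genes for the response to uncharged tRNA and for the eIF2 phosphatase, 2 were lower and 2 higher. Among all genes tested, 24.5% were lower and 24.1% higher, and with so few genes these counts are not a result about the branch. *Eif2ak4*, which encodes GCN2, had a log2 fold change of 0.04 (adjusted p = 0.677). The other 4 genes were chosen for mention after their values were seen, with *Gcn1l1*, which encodes the GCN2 activator GCN1, at 0.27 (adjusted p = 0.00196), *Ppp1r15a*, the inducible phosphatase subunit, at 0.42 (adjusted p = 0.0163), *Ppp1r15b*, the constitutive one, at −0.35 (adjusted p = 0.000847) and *Impact*, an inhibitor of GCN2, at −0.58 (adjusted p = 0.00358). The call of *Ppp1r15a* was lost with DESeq2 (adjusted p = 0.0503) and without cKO replicate 3, control replicate 1 or control replicate 2 (0.0577, 0.0712 and 0.0658).

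Of 20 genes of the ATF4 response outside the synthetases, 14 were lower and 2 were higher, with a median log2 fold change of −0.862. *Asns*, which encodes asparagine synthetase, had 19.4, 22.8 and 15.6 CPM in cKO and 112, 108 and 116 CPM in control libraries (log2 fold change −2.54, SE 0.118, adjusted p = 6.2e-07). *Psat1*, of serine synthesis, had a log2 fold change of −1.03 (adjusted p = 2.33e-06) and *Shmt2*, of mitochondrial one-carbon metabolism, −0.89 (adjusted p = 9.17e-06). The others lower past both cutoffs were *Ddit3*, *Pycr1*, *Ddit4*, *Cebpb*, *Mthfd2* and *Aldh18a1*. *Atf4* itself had 634, 669 and 641 CPM in cKO and 627, 560.3 and 611 CPM in control libraries (log2 fold change 0.11, SE 0.0532, adjusted p = 0.105). ATF4 is controlled largely at translation, which these data did not measure. *Atf5* rose (log2 fold change 1.44, adjusted p = 3.42e-07).

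**Figure D5:**
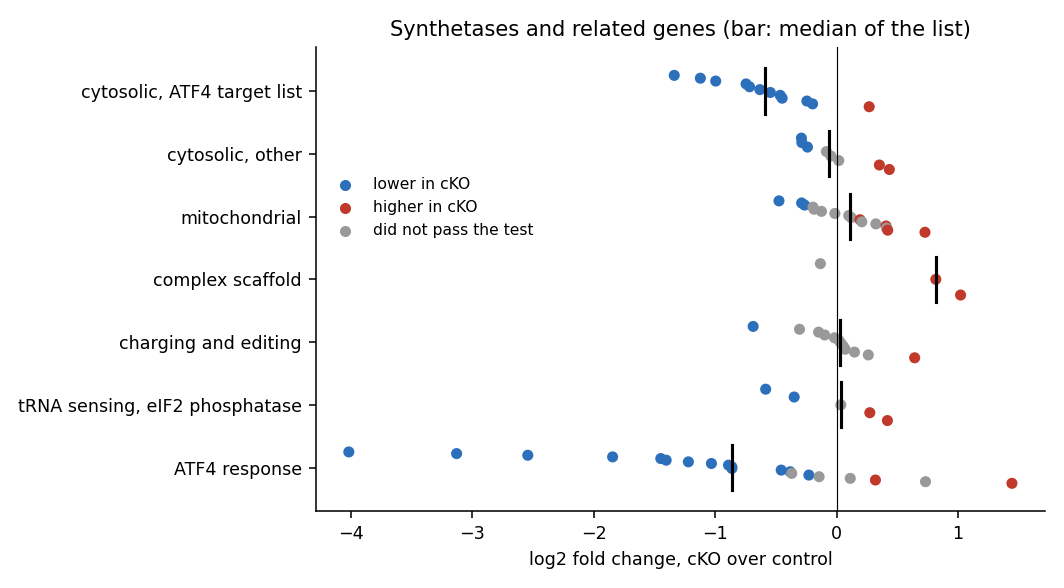
Log2 fold change of cKO over control for synthetases in 3 groups and for 4 lists of related genes, 1 point per gene, with the median of each list as a bar. Colors mark genes that passed the test. The lists were chosen with earlier results of these data known. The cytosolic enzymes listed as ATF4 targets have a median of −0.588 and the ATF4 response genes −0.862, while the median of the other cytosolic enzymes (−0.065) and the median log2 fold change of the mitochondrial synthetases (0.111, and 0.0592 to 0.171 with single libraries left out) lie nearer 0, with members on both sides.

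Markers of other cell states were examined beside these results. Of 5 plasma cell markers tested, 3 were lower and 2 higher in cKO. Their summed level over 6 listed genes was 646 to 788 CPM in cKO and 831 to 852 CPM in control libraries, and *Jchain* had a log2 fold change of −4.00 (adjusted p = 1.58e-06). *Xbp1*, of the secretory program, had −1.10 (adjusted p = 1.94e-06) and *Prdm1*, the regulator of plasma cell fate, −1.13 (adjusted p = 0.00161). The higher markers were *Sdc1*, at 302% of the control level (adjusted p = 2.06e-05), and *Irf4*, at a log2 fold change of 0.42 (adjusted p = 0.00282), the latter named after its value was seen. Fibroblast markers, of which 2 of 10 were at 0 in every library (*Lum* and *Postn*), summed to 103 to 128 CPM in cKO and 76.8 to 142 CPM in control libraries. Of 7 tested, 2 were higher in cKO and 0 lower. *Fn1* had a log2 fold change of 1.07 (adjusted p = 0.000651), and *Fbn1* had 207, 139 and 172 counts in cKO and 0 in every control library. T cell and myeloid markers summed to 4.05 to 6.20 CPM in cKO and 1.53 to 2.62 CPM in control libraries, with *Cd3e* at 0 in every library. Of 7 listed, 2 were tested, and 1 was higher in cKO and 0 lower. It was *Adgre1*, which encodes the macrophage marker F4/80, at 3.64, 4.67 and 5.54 CPM in cKO and 0.620, 0.916 and 2.02 CPM in control libraries (log2 fold change 1.96, adjusted p = 0.00203), with no overlap between groups. The part of these cells or states in the synthetase values was not tested.

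Use of individual RefSeq transcripts was tested with edgeR's diffSpliceDGE, which asks whether transcripts of 1 gene move unlike each other. Of 36 members, 10 had enough transcripts above the filter, and 0 passed at an adjusted p under 0.05, against 3.28% of the 2990 genes tested. At an unadjusted p under 0.05 there were 4, *Kars*, *Tars2*, *Yars2* and *Farsb*. The share of all genes tested at that unadjusted threshold was not computed, so whether 4 is many cannot be said. *Kars* was lowest, at an adjusted p of 0.158. Its transcripts encode the mitochondrial and the cytosolic form, and the share of its counts in NM_001130868 was 15.6%, 14.2% and 12.7% in cKO and 29.6%, 19.2% and 20.9% in control libraries. In *Tars2*, NM_027931 held 90.7%, 95.6% and 85.9% of the counts in cKO and 52.8%, 69.9% and 29.9% in control libraries (gene-level adjusted p = 0.17). The control libraries were spread widely, and without cKO replicate 3 the adjusted p of *Tars2* was 0.0012. *Dars* entered the test only with a library left out, through NM_145507, which had 18, 6 and 10 counts in the control libraries and 0 in every cKO library, at most 0.205% of the *Dars* counts. Its calls in those fits (adjusted p from 0.0236 to 0.0371) concern this share alone. These shares are estimates by StringTie from reads that transcripts of a gene have in common.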

How the data were processed

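RNA-seq of YFP+ iGCBs from 3 cKO and 3 control replicates was used, with groups from the sample labels. The authors trimmed reads, aligned them with HISAT2 (mm10, per the processing notes), quantified them with StringTie and deposited estimated counts of genes and RefSeq transcripts, written by prepDE, whole and without normalization. Tool versions, the read length setting and the handling of strand were not given in the sources used here, so totals are not numbers of fragments. With 3 counts as a floor, 0.0659 to 0.0768 CPM was the limit per library, for counting error only. No column of per-sample values was left unused.

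The tests were run with edgeR 4.0.16 (R 4.3.3): filterByExpr with a minimum count of 10, TMM, and the quasi-likelihood test (glmQLFit, glmQLFTest) without covariates, with Benjamini-Hochberg adjustment. Log2 ratios between genes used a prior count of 2. Alternatives were DESeq2 1.42.0, its size factors, total counts, no filter, at least 10 counts in every library, the replicate number as a block, *Xist* presence as a covariate and each library left out in turn. All 36 members were named. Genes of other lists were named past the test and 1.5-fold, and any others after their values were seen. The members and lists were chosen with earlier results of these data known. Each library was taken as 1 biological replicate, and the sources used here did not state that each came from 1 mouse. The p-values measure the spread between replicates, which includes culture and sorting.

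Promoters and positions came from RefSeq on GRCm38.p6, and RefSeq transcripts were matched to genes for 34674 of 36026. Shared sequence was searched with BLAST among GENCODE M21 transcripts, keeping matches of at least 100 bases at 95% identity or more. GENCODE transcripts can extend past the RefSeq ones that were counted, so the overlap of RefSeq gene spans was computed as well. The test was tried on simulated data for 13296 genes, where 200 had a fold change of 2. It found 70.1% of the 197 that passed the filter, 89.4% of the 151 with a mean of at least 100 counts, and called 13 unchanged genes. Far fewer genes changed in the simulation than passed in the data (3264 lower and 3204 higher), and by a larger fold than most members. These rates therefore need not hold for the data.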

Additional observations from a re-analysis of the deposited data

How the results depend on the processing

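The count of cytosolic genes lower in cKO was 13 or 14 in every fit, and the count higher was 3 in all. Of 468 values of single members under the alternatives, 443 kept their direction and their side of the threshold, 15 lost the call, 3 gained it and 7 changed sign. The changes of sign were those of *Rars* and *Ears2*, near 0. *Rars* was −0.019 with *Xist* presence as a covariate and lay between −0.0823 and 0.120 when single libraries were left out (−0.00213 without cKO replicate 1, −0.0823 without control replicate 2). *Ears2* lay between −0.179 and 0.0635 when single libraries were left out, and was 0.0635 and 0.0629 without cKO replicates 1 and 2, and 0.0426 and 0.0179 without control replicates 1 and 3. *Eif2ak4* lay between −0.00224 (without cKO replicate 1) and 0.0751 in such fits. The median log2 fold change of the mitochondrial synthetases was 0.061 with *Xist* as a covariate and lay between 0.0592 (without control replicate 2) and 0.171 (without control replicate 3) when single libraries were left out. The sensing genes higher in cKO numbered 1 with DESeq2, and 1 to 2 with each library left out, and the call that was lost was that of *Ppp1r15a*. With a library left out, the scaffold genes lower in cKO ranged from 0 to 1, the other charging factors lower in cKO from 1 to 2, and the members with a change in transcript use from 0 to 2. The last count was 1 (*Farsb*) with at least 10 counts in every library. The cause of these shifts was not tested. The alternatives for the lists of other genes were chosen after seeing the data. Leaving out immunoglobulin genes was not run, since 0 symbols in the table mark one.

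The replicate numbers were shared between groups, but deviations of same-numbered libraries correlated at only 0.00851, 0.0839 and 0.133, so the numbers were not taken to pair the libraries. As a hint from the data, cKO replicates 1 and 2 correlated best with control replicates 3 and 1 (0.0405 and 0.103), not with their own number. With the replicate number as a block, 3165 genes were lower and 3069 higher, beside 3264 and 3204 without it. Among the synthetases this pairing changed the call of *Tars2* alone (adjusted p = 0.0596).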
